A study of Homo sapiens with 7 samples.

Results

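The immunoproteasome and class I antigen presentation genes are 10 genes whose products cut proteins into peptides and load them on class I molecules. They are PSMB8, PSMB9, PSMB10, PSME1, PSME2, TAP1, TAP2, TAPBP, B2M and NLRC5. The genes were chosen by function with earlier results of these arrays in view, among them the PSMB9 signal in the CtBP2 knockdown, so the PSMB9 difference there is a description. All 10 were measured, out of 17958 genes tested. Each was read from a transcript cluster annotated to it alone, taking the brightest on average where several existed. PSMB8, PSMB9 and TAP1 have 3 clusters each with identical values, so this choice did not matter for them. TAP2 and TAPBP have 3 clusters each with different values.

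The series compares stable lentiviral SKOV3 clones, a human ovarian carcinoma cell line, on 7 Affymetrix Human Gene 1.1 ST arrays. There are 2 arrays of CtBP2 knockdown clones, 3 labelled CtBP1 knockdown and 2 of scramble control clones. Each array is labelled as 1 clone. All were infected with lentivirus and grown under puromycin. CtBP1 and CtBP2 are related transcriptional co-repressors, and the study asked which genes each of them regulates in these cells. The source name differs from array to array, while the cell line field gives SKOV3 for all. The labels do not tie arrays to separate cultures. All p-values below therefore describe the spread among these 7 arrays alone, and part of it may be technical.

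The proteasome is a barrel of protein subunits that degrades tagged proteins. In cells exposed to interferon-gamma or other inflammatory signals, 3 of its catalytic subunits are replaced by PSMB8, PSMB9 and PSMB10, which makes the immunoproteasome. PSME1 and PSME2 form the PA28 cap that opens the barrel. TAP1 and TAP2 form the transporter that carries the peptides into the endoplasmic reticulum, and TAPBP (tapasin) bridges that transporter to the class I molecule. B2M is the light chain that every class I molecule needs, and NLRC5 is a transactivator of class I genes. Tumour cells often show these genes at reduced levels, which limits their recognition by CD8+ T cells.

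The control arrays differ from each other, and this bears on every comparison with them. Over all genes, the correlation of scramble array 1 with the rest was 0.926 to 0.941, and among the other 6 it was 0.971 to 0.993. It also had a narrow spread of signals (interquartile range 2.20 log2 units, against 2.85 to 3.15 on the others). The summed linear signal of 10 G2/M genes was 1784 and 2014 in CtBP2 knockdown and 1526 to 1735 under the CtBP1 knockdown label, against 318 on scramble array 1 and 1911 on scramble array 2. Differences from scramble are therefore also plotted against each control alone, and given in the text where the controls decide them. CTBP2 had log2 signals of 4.64 and 4.22 in CtBP2 knockdown, against 5.70 and 6.14 in scramble. CTBP1 had 5.11, 6.13 and 6.13 on the arrays labelled CtBP1 knockdown, against 5.69 and 6.37 in scramble. Since the CTBP1 signal overlaps the controls, those arrays are called by their label.

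The cells carried the markers of their labelled type. Of 8 carcinoma markers, EPCAM, KRT7, KRT8, KRT18, KRT19, PAX8 and ERBB2 had log2 signals of 4.59 or more on every array, while CDH1 lay between 2.36 and 3.27. Most of these markers were also higher in CtBP2 knockdown: the median difference from scramble was 0.50, 6 of 8 were separated on the higher side (19.3% of all genes were), and KRT7 differed by 2.54 ± 0.75 (SE). KRT19 was the lowest (-0.17) and overlapped scramble, as did PAX8. PAX8 had log2 signals of 7.37 and 7.06 in CtBP2 knockdown, against 7.95, 8.29 and 8.65 under the CtBP1 knockdown label and 6.41 and 7.49 in scramble. The summed linear signal of the 8 markers was 2775 and 2034 in CtBP2 knockdown and 1650 to 1996 under the CtBP1 knockdown label, against 1153 and 1733 in scramble. None of the 8 passed, and their part in the differences of the members was not tested. Of 8 leukocyte markers measured, 7 were under a log2 signal of 3 on every array, and the exception was the lysosomal protein gene CD68. PTPRC, which marks all leukocytes, was among these 7. Without CD68, which makes up most of the list's signal, the summed linear signal of the 7 was 28.0 and 28.6 in CtBP2 knockdown, 29.0 to 29.8 under the CtBP1 knockdown label, and 32.8 and 28.4 in scramble. With CD68 it was 143 and 117 in CtBP2 knockdown, 89.5 to 167 under the CtBP1 knockdown label, and 165 and 133 in scramble. On an array a log2 signal has no true zero, so none of these genes can be called absent.

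Promoter sequence is shown for the genes that stood highest on the CtBP2 knockdown arrays, with TAP1 added as the neighbour of PSMB9, and this choice was made after their values were seen. RefSeq windows on GRCh38.p14 were found for 9 of the 10 members, all but NLRC5, and the 250 bases before a start site were searched on both strands. Capitals mark matches to the ISRE core GAAANNGAAA, which interferon regulatory factors bind, and to the NF-kB letters GGGANTTTCC. The gamma-activated site TTCNNNGAA, an element of interferon-gamma responsive promoters, was searched as well. PSMB9 and TAP1 are transcribed away from each other, and their windows share 13 bases.
PSMB9, chr6:32853942-32854191, plus strand: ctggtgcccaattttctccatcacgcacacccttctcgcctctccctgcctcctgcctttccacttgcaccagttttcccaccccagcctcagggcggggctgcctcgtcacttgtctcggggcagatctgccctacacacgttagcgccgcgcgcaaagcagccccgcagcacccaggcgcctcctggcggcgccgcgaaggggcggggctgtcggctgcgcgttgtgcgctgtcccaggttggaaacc
TAP1, chr6:32853705-32853954, minus strand: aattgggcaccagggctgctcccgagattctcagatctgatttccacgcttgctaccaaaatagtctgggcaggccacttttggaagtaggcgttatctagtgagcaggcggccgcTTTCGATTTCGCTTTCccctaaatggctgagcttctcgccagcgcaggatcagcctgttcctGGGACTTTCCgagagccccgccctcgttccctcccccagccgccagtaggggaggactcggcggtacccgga
TAP2, chr6:32838740-32838989, minus strand: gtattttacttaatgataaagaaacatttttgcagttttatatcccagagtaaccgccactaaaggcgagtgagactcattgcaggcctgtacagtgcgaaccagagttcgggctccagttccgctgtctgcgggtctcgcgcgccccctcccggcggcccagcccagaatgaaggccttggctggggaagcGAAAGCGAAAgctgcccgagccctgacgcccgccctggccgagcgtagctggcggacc
B2M, chr15:44711267-44711516, plus strand: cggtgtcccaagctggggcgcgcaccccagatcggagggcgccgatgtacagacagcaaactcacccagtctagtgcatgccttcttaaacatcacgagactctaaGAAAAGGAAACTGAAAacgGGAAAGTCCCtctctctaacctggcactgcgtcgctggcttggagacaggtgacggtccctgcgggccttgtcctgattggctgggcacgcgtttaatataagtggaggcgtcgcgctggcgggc
ISRE core letters were found in windows of 6 members (B2M, PSMB10, PSME2, TAP1, TAP2 and TAPBP), and in 3.02% of all 35116 windows. In TAP1, B2M and TAPBP a pair of ISRE cores overlap each other. NF-kB letters were found in windows of 2 members, TAP1 (GGGACTTTCC, 72 to 63 bases before the start) and B2M (GGAAAGTCCC on the other strand, 125 to 116 bases before it), and in 0.527% of all windows. Gamma-activated site letters occurred at a second start site of PSMB8 and of TAP1, and in 6.57% of all windows. The PSMB9 and PSME1 windows held none of these letters. The start sites of PSMB9 and TAP1 lie 488 bases apart. The ISRE core and NF-kB matches of TAP1 therefore also lie upstream of PSMB9, beyond the 250 bases searched for it. These are matches of letters and not shown to be bound sites.

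Against scramble control, the CtBP2 knockdown arrays showed higher signals of PSMB9, B2M, TAP2 and TAP1, while PSME1, PSME2 and NLRC5 overlapped the controls. PSMB9 was 2.67-fold higher (log2 difference 1.41 ± 0.14, SE of the limma fit, 2 arrays against 2) and B2M was 2.44-fold higher (1.28 ± 0.41). None of the 10 members passed the test: limma with Benjamini-Hochberg adjustment over all genes gave adjusted p from 0.158 to 0.835. Over all 17958 genes 1 was called, or 0.00557%, the small nuclear RNA gene RNU4-1 (3.85 ± 0.23), named here because it is the single call. In bulk RNA, fewer cells that express a gene and less RNA per cell cannot be told apart. At an unadjusted p under 0.05, 4 members were higher and none was lower, where 7.19% of all genes were higher and 2.98% lower. Both CtBP2 knockdown arrays lay above both scramble arrays for 7 members and below them for none. The same held for 19.3% of all genes on the higher side and 21.7% on the lower side. Such shares of separated genes, here and below, were not computed for the genes above the median level alone. Of those brighter genes 71.5% were above zero in this comparison, against 47.3% of all genes. The counts of 4 and 7 members both include PSMB9, whose signal in this knockdown was in view when the genes were chosen. The median difference of the members was 0.65, against -0.02 over all genes, and 0.23 over the genes above the median level, to which 8 of the members belong.

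**Figure D1:**
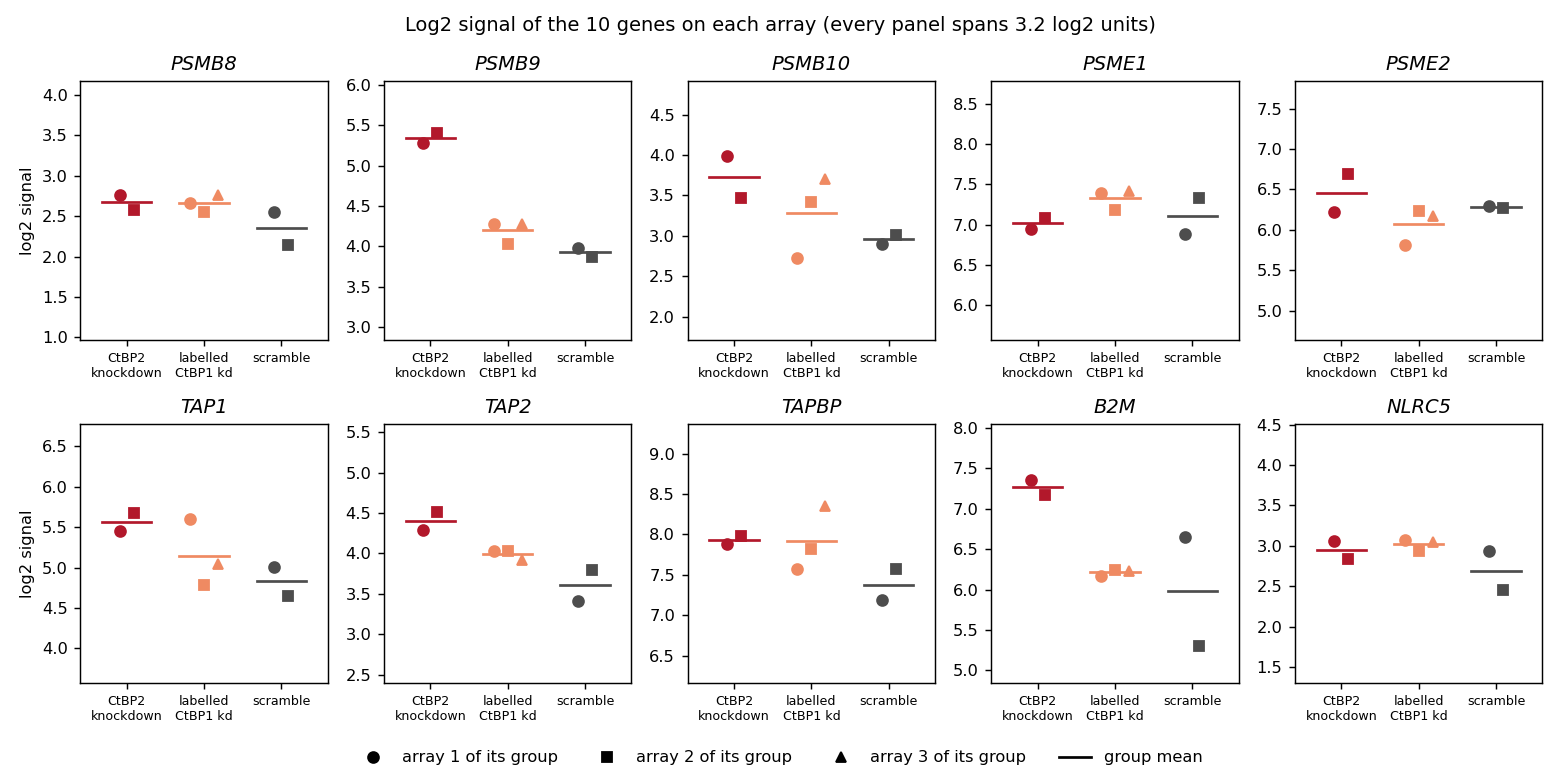
Log2 signal (vertical axes, each spanning the same range) of the 10 genes on each of the 7 arrays, by group from left to right, with a bar at the group mean and a marker shape for the array number. PSMB9, TAP2 and B2M are the genes for which both CtBP2 knockdown arrays lie above the 5 other arrays.

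Among the catalytic subunits, PSMB9, the beta1i subunit, stood apart. Its log2 signals were 5.28 and 5.40 in CtBP2 knockdown, against 4.28, 4.04 and 4.28 under the CtBP1 knockdown label and 3.99 and 3.87 in scramble. The groups did not overlap, and the control arrays were close to each other. The values of labelled CtBP1 knockdown arrays 1 and 3 are identical, as happens for 40.0% of all genes on some pair of arrays, which can make a group's spread look too small. Against scramble array 2 alone the difference was 1.48 (adjusted p = 0.18, limma), and against scramble array 1 alone it was 1.35 (adjusted p = 0.0112, limma). In the second fit scramble array 1 is the lone control, its spread is taken from the other groups, and 3952 genes pass.

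PSMB8, the beta5i subunit, had log2 signals of 2.77 and 2.58 in CtBP2 knockdown, against 2.66, 2.56 and 2.76 under the CtBP1 knockdown label and 2.56 and 2.14 in scramble. Scramble array 1 nearly reached CtBP2 knockdown array 2, and against it alone the difference was 0.11, so the difference of 0.32 ± 0.18 (SE) rests mostly on scramble array 2. PSMB10, the beta2i subunit, had 3.99 and 3.47 in CtBP2 knockdown, against 2.72, 3.41 and 3.70 under the CtBP1 knockdown label and 2.90 and 3.01 in scramble. Its difference from scramble was 0.77 ± 0.34 (SE, adjusted p = 0.510 by limma). The CtBP2 knockdown arrays lay above both controls but on both sides of labelled CtBP1 knockdown array 3.

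The PA28 cap genes gave small differences. PSME1 had log2 signals of 6.94 and 7.09 in CtBP2 knockdown, against 7.40, 7.18 and 7.42 under the CtBP1 knockdown label and 6.89 and 7.33 in scramble. The CtBP2 knockdown arrays lay between the controls and below all arrays labelled CtBP1 knockdown. PSME2 had 6.22 and 6.69 in CtBP2 knockdown, against 5.82, 6.24 and 6.17 under the CtBP1 knockdown label and 6.29 and 6.27 in scramble. The 95% intervals of the difference between CtBP2 knockdown and scramble ran from -0.56 to 0.37 for PSME1 and from -0.35 to 0.70 for PSME2, and both include zero.

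Both transporter genes were higher on the CtBP2 knockdown arrays than on the controls. TAP2 had log2 signals of 4.30 and 4.51 in CtBP2 knockdown, against 4.03, 4.03 and 3.92 under the CtBP1 knockdown label and 3.41 and 3.80 in scramble. Its 3 groups did not overlap, and the difference from scramble was 0.80 ± 0.17 (SE, 1.74-fold, adjusted p = 0.291 by limma). It was 0.60 against scramble array 2 alone (adjusted p = 0.296, limma) and 0.99 against scramble array 1 alone (adjusted p = 0.0151, limma). TAP1 had 5.45 and 5.68 in CtBP2 knockdown, against 5.60, 4.78 and 5.04 under the CtBP1 knockdown label and 5.003 and 4.65 in scramble. Its difference from scramble was 0.74 ± 0.29 (SE, 1.67-fold, adjusted p = 0.482 by limma). Labelled CtBP1 knockdown array 1 reached the level of the CtBP2 knockdown arrays for TAP1, while the other two did not. TAPBP had 7.88 and 7.98 in CtBP2 knockdown, against 7.58, 7.81 and 8.35 under the CtBP1 knockdown label and 7.18 and 7.57 in scramble. In the cluster used, TAPBP lay above both controls in both knockdowns, by 0.55 ± 0.28 in the CtBP2 knockdown and 0.54 ± 0.25 in the arrays labelled CtBP1 knockdown (SE).

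B2M had log2 signals of 7.35 and 7.18 in CtBP2 knockdown, against 6.17, 6.25 and 6.23 under the CtBP1 knockdown label and 6.66 and 5.30 in scramble. Both CtBP2 knockdown arrays were above all others, while the controls lay on either side of the arrays labelled CtBP1 knockdown. The 1.35 log2 units between the controls exceed the difference of 1.28 ± 0.41 (SE) between CtBP2 knockdown and scramble. The difference of the CtBP2 knockdown from scramble was 1.96 against scramble array 2 alone (adjusted p = 0.18, limma) and 0.61 against scramble array 1 alone (adjusted p = 0.0321, limma). NLRC5 had 3.05 and 2.83 in CtBP2 knockdown, against 3.07, 2.94 and 3.05 under the CtBP1 knockdown label and 2.94 and 2.45 in scramble. The knockdown arrays of both kinds overlapped scramble array 1, and the difference of 0.25 ± 0.19 (SE) between CtBP2 knockdown and scramble was 0.0076 against scramble array 1 alone.

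**Figure D2:**
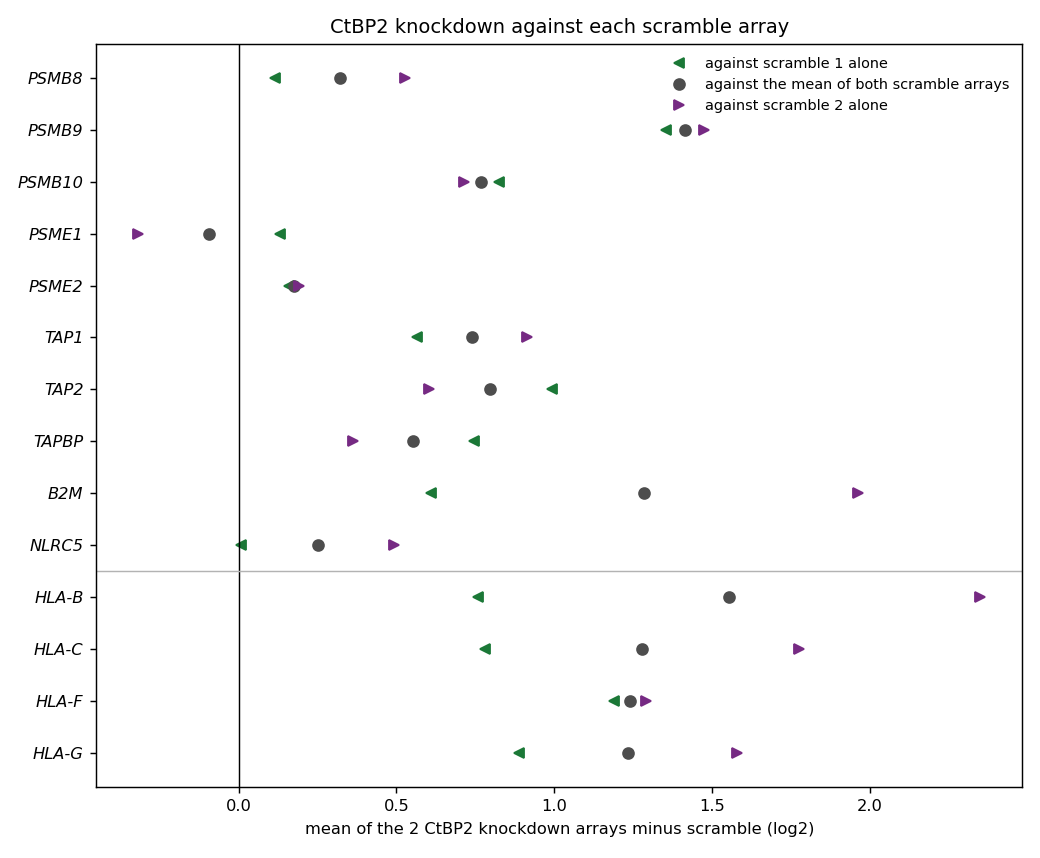
Mean log2 signal of the 2 CtBP2 knockdown arrays minus scramble array 1, scramble array 2 or their mean (horizontal axis) for the 10 genes and, under the line, 4 class I heavy chains. PSMB9 moves little between the controls (1.35 to 1.48), while B2M moves from 0.61 to 1.96 and PSME1 changes its side of zero.

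The heavy chains that pair with B2M were also higher in CtBP2 knockdown. HLA-B had log2 signals of 9.96 and 9.62 in CtBP2 knockdown, against 9.17, 8.52 and 8.78 under the CtBP1 knockdown label and 9.03 and 7.44 in scramble. All 4 heavy chains measured alone (HLA-B, HLA-C, HLA-F and HLA-G) were above both controls on both CtBP2 knockdown arrays (19.3% of all genes were). Their differences from scramble were 1.55 ± 0.52, 1.28 ± 0.37, 1.24 ± 0.23 and 1.23 ± 0.30 in that order (SE), and none passed (limma, adjusted p from 0.245 to 0.432). HLA-F has 3 clusters with different values, of which the brightest was used, and the mean of its clusters gave 1.03. Scramble array 1 exceeded scramble array 2 by 1.59 for HLA-B, 0.99 for HLA-C, 0.69 for HLA-G and 0.10 for HLA-F. Another 6 clusters annotated to several class I genes were also higher on both CtBP2 knockdown arrays than on the 5 other arrays. The same held for 10.2% of all genes. These 6 clusters differed from the scramble mean by 1.10 to 1.63, and a pair of them has identical values on every array. Class I genes are near-identical in sequence, so a cluster may mix several of them and these values are not independent.

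The comparison of the arrays labelled CtBP1 knockdown with scramble gave smaller differences. TAPBP (0.54 ± 0.25) and TAP2 (0.39 ± 0.16) were the furthest above scramble, and PSME2 (-0.20 ± 0.20) was the one member with a negative difference (SE, 3 arrays against 2). None of the 10 members passed the test (limma, adjusted p from 0.734 to 0.849), nor did any of the 17958 genes, a background of 0%. At an unadjusted p under 0.05, limma gave 861 genes in all (4.79%), with 2.87% higher and 1.92% lower, and of the members TAP2 alone, on the higher side. Every array labelled CtBP1 knockdown lay above both controls for PSMB9, TAP2 and TAPBP and below both for PSME2, where 6.76% of all genes were separated on the higher side and 7.59% on the lower side. For TAPBP the gap was small, 7.578 on labelled CtBP1 knockdown array 1 against 7.567 on scramble array 2. In a dimmer TAPBP cluster these arrays had 7.230 and 7.242, so the groups overlapped, while the dimmest cluster was separated. The median difference of the members was 0.31, against -0.0047 over all genes. It was 0.34 without scramble array 1 and 0.18 without scramble array 2. B2M differed by 0.23 ± 0.37 (SE), which was 0.91 against scramble array 2 alone and -0.44 against scramble array 1 alone.

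In the direct comparison of CtBP2 knockdown with the arrays labelled CtBP1 knockdown, the differences themselves do not use the controls. Their SEs, intervals and p-values do, since all 3 groups share 1 estimate of the spread, to which the scramble arrays add. PSMB9 differed by 1.14 ± 0.13 (SE, 2 arrays against 3), or 2.20-fold, and B2M by 1.05 ± 0.37, or 2.07-fold. TAP2 differed by 0.41 ± 0.16. Both CtBP2 knockdown arrays were above all arrays labelled CtBP1 knockdown for these 3 members and below them for PSME1, which differed by -0.32 ± 0.17 (SE). Of all genes, 15.8% were separated on the higher side and 16.2% on the lower side. PSMB8, TAPBP and NLRC5 were close between the knockdowns, with 95% intervals from -0.39 to 0.41, from -0.60 to 0.63 and from -0.50 to 0.35. No member passed (limma, adjusted p from 0.132 for PSMB9 to 0.999), and limma called 0 of 17958 genes, or 0%, with 1395 (7.77%) at an unadjusted p under 0.05. That lower bar was met on the higher side by 3 members (PSMB9, TAP2 and B2M) and 5.31% of all genes. On the lower side it was met by no member and 2.46% of all genes. Here too PSMB9 is counted, though its CtBP2 knockdown signal was in view when the genes were chosen. The median difference of the members was 0.39, against -0.01 over all genes, and 0.21 without labelled CtBP1 knockdown array 1. With arrays weighted by their spread around the group means in these same data, limma called 272 genes. Among them were PSMB9 (1.13, adjusted p = 0.0157) and B2M (1.05, adjusted p = 0.0433). Such weights are not a separate measure of array quality. This comparison and those with scramble share arrays, so their values are not independent.

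**Figure D3:**
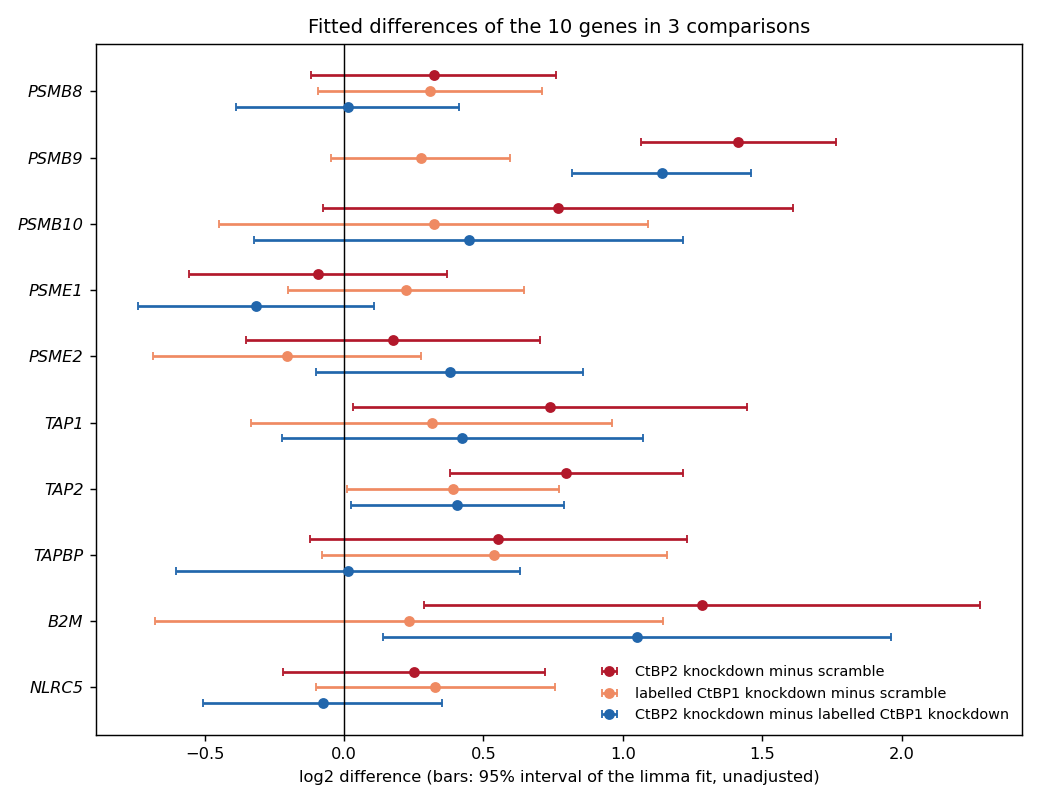
Fitted log2 differences of the 10 genes (points) with 95% intervals of the limma fit (bars, not adjusted over genes) in the 3 comparisons. For PSMB9 both comparisons that involve the CtBP2 knockdown lie above 0.8, and that of the arrays labelled CtBP1 knockdown with scramble is 0.27.

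Over all 7 arrays, 3 members (PSMB9, TAP2 and B2M) had both CtBP2 knockdown arrays above the 5 others, as did 10.2% of all genes. No member had both below. The 3 include PSMB9, whose signal in the CtBP2 knockdown was in view when the genes were chosen.

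Immunosubunits take the place of constitutive partners, so each was also set against its partner within an array (PSMB8 against PSMB5, PSMB9 against PSMB6, PSMB10 against PSMB7). Only differences of this log2 ratio between arrays are read. The PSMB9/PSMB6 ratio was -2.37 and -2.59 in CtBP2 knockdown, against -2.86, -4.27 and -3.71 under the CtBP1 knockdown label and -2.34 and -4.01 in scramble. It was higher in the CtBP2 knockdown than on all arrays labelled CtBP1 knockdown, by 1.13 (exact permutation test, two-sided p = 0.2, the smallest that 2 against 3 arrays allow), and it overlapped the controls. On scramble array 1 PSMB6 had a log2 signal of 6.33, against 7.14 to 8.30 on the others, and PSMB5 had 4.07, against 5.75 to 6.61. The PSMB8/PSMB5 ratio was lower in the CtBP2 knockdown than on the arrays labelled CtBP1 knockdown, by -0.34 (exact p = 0.2), and the PSMB10/PSMB7 ratio overlapped between all groups. Of 9 such tests none passed after Benjamini-Hochberg adjustment (smallest adjusted exact p = 0.9), and 2 against 2 arrays cannot go below 0.333.

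Other proteasome subunits were also measured, and their differences varied by group and with the control used. All 11 other 20S subunits were above scramble in the fit, at a median of 0.69, and 6 were separated on the higher side. Over all genes 47.3% were above zero in this comparison, and 19.3% were separated on the higher side. Of the genes above the median level, 71.5% were above zero. Those of the 11 with the smallest p-values were PSMB1 (1.78 ± 0.43), PSMA6 (0.95 ± 0.24), PSMA5 (0.90 ± 0.23) and PSMB3 (1.14 ± 0.31), all subunits of the barrel (SE). Without scramble array 1 their median was 0.55 with 7 of 11 above zero, and without scramble array 2 it was 0.94. The 3 constitutive catalytic subunits PSMB5, PSMB6 and PSMB7 differed by 1.11 ± 0.71, 0.72 ± 0.58 and 0.69 ± 0.24, and of these PSMB7 was separated from the controls. Their median of 0.72 was -0.06 without scramble array 1. The 14 subunits of the 19S cap measured had a median of 0.33, with 12 above zero and 8 separated on the higher side. The smallest p-values among them were those of PSMD3 (1.14 ± 0.29) and PSMD2 (0.98 ± 0.29). The 19S median was 0.11 with 8 above zero without scramble array 1, and 1.01 without scramble array 2. Assembly factors and other caps had a median of 0.27 over 8 genes, which was -0.02 without scramble array 1, and the chaperone PSMG1 differed by 1.20 ± 0.23 (SE). The median of the 10 members, 0.65, was 0.56 without scramble array 1 and 0.59 without scramble array 2, with 9 and 10 of them above zero. The G2/M genes, low on scramble array 1, had a median of 1.35, which was -0.04 without that array, and their part in these differences was not tested. None of these genes passed over all genes.

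Genes that trim and load peptides were mixed. In the CtBP2 knockdown 4 of 5 were separated above scramble and 1 below, where 19.3% and 21.7% of all genes were, and none passed. ERAP1, which trims peptides in the endoplasmic reticulum, differed by 0.88 ± 0.24, ERAP2 by 0.67 ± 0.32 and the chaperone CALR by 0.86 ± 0.35, while the chaperone CANX differed by -0.39 ± 0.13 (SE). All 6 cytosolic peptidases measured were above scramble in the fit, as were 47.3% of all genes and 71.5% of those above the median level. The peptidases had a median of 0.45, and 3 were separated on the higher side (19.3% of all genes were). Without scramble array 1 that median was 0.12 with 4 above zero. Those with the smallest p-values were LAP3 (0.58 ± 0.28) and THOP1 (0.52 ± 0.31).

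**Figure D4:**
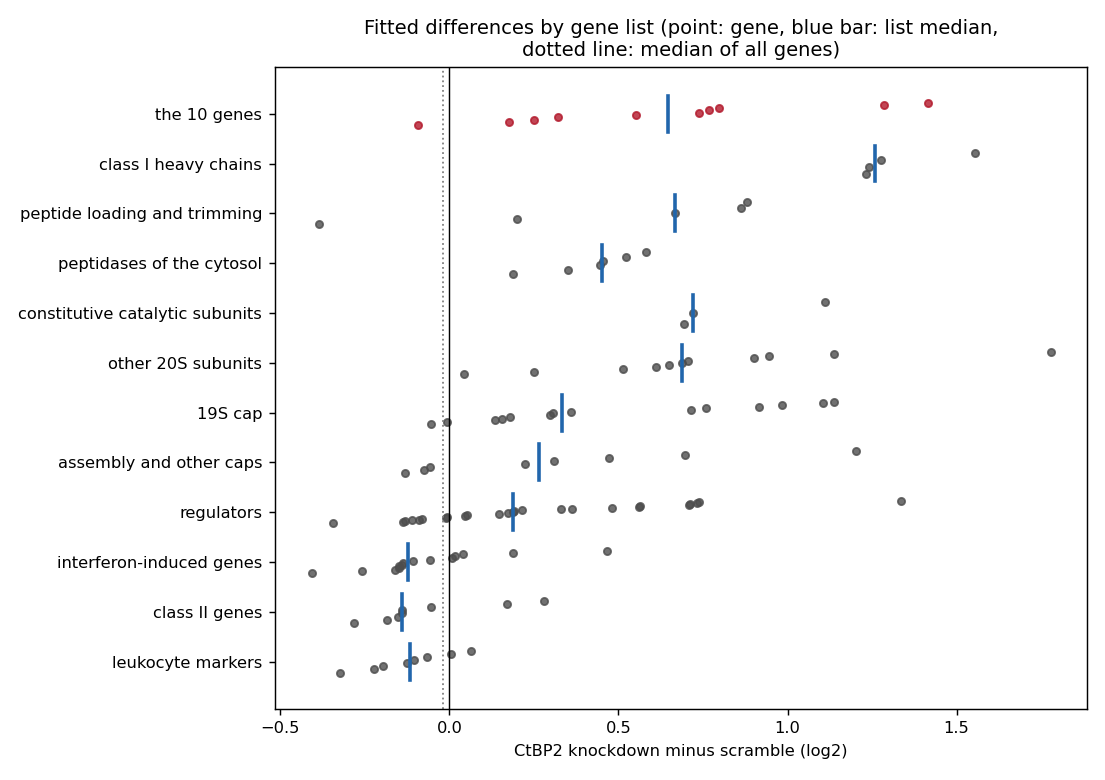
Fitted log2 differences between CtBP2 knockdown and scramble (horizontal axis) for each gene (points) of 12 lists, with the list median (blue bar), zero (solid line) and the median of all genes (dotted line). The 10 genes, the class I heavy chains and the 20S subunits have medians of 0.65, 1.26 and 0.69, while interferon-induced genes, class II genes and leukocyte markers have medians of -0.12, -0.14 and -0.12.

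Of 25 regulators measured, 11 were separated above scramble and 4 below in the CtBP2 knockdown, where 19.3% and 21.7% of all genes were. Their median was 0.19 (0.07 without scramble array 1), and none passed. NFKB1, which encodes the p50 subunit of NF-kB, had log2 signals of 6.16 and 6.12 in CtBP2 knockdown, against 5.08, 4.85 and 4.89 under the CtBP1 knockdown label and 4.77 and 4.84 in scramble. Its difference from scramble was 1.34 ± 0.13 (SE, adjusted p = 0.153 by limma). NFKB2 differed by 0.56 ± 0.18, the interferon receptor kinase JAK1 by 0.74 ± 0.28, and RFXANK, part of the RFX complex that binds class I and class II promoters, by 0.73 ± 0.28. IRF1, a transcription factor of the interferon response that was looked up after its values were seen, differed by 0.19 ± 0.17.

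Interferon-induced genes outside the pathway were mostly dim, with 10 of the 14 measured under a log2 signal of 3 on every array. Their median difference between CtBP2 knockdown and scramble was -0.12, which was 0.0048 without scramble array 1. Of them 1 was separated on the higher side and 3 on the lower side, where 19.3% and 21.7% of all genes were, and none passed. Those with the smallest p-values were IFIT2 (-0.26 ± 0.17), CXCL10 (-0.15 ± 0.12), OAS2 (-0.15 ± 0.12) and IFI44 (-0.41 ± 0.34). IFIT2 had log2 signals of 1.77 and 1.88 in CtBP2 knockdown, against 1.91, 2.08 and 1.67 under the CtBP1 knockdown label and 2.19 and 1.98 in scramble. IDO1, which breaks down tryptophan and was named after its values were seen, was the highest of the list. It had log2 signals of 5.45 and 3.86 in CtBP2 knockdown, against 3.56, 2.41 and 2.79 under the CtBP1 knockdown label and 4.51 and 3.87 in scramble. It overlapped scramble (0.47 ± 0.61) and was separated from the arrays labelled CtBP1 knockdown (1.74 ± 0.56, SE, adjusted p = 0.508 by limma). The class II genes, including the transactivator CIITA, had a median of -0.14 over 8 genes, and their summed linear signal was 39.9 and 39.3 on the CtBP2 knockdown arrays, 34.8 to 53.5 under the CtBP1 knockdown label, and 44.5 and 39.2 in scramble.

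The genes whose pattern was most like that of PSMB9 were found by the root mean square difference between centred log2 profiles over the 7 arrays, among 7970 genes with at least 0.5 times its range. NFKB1 was the closest (0.11 log2 units), followed by NET1, a guanine nucleotide exchange factor (0.14), TGFA, a ligand of the EGF receptor (0.16), PLGRKT, a plasminogen receptor (0.16), and the histone gene H2AC13 (0.17). NET1 had log2 signals of 6.45 and 6.56 in CtBP2 knockdown, against 5.77, 5.32 and 5.36 under the CtBP1 knockdown label and 5.37 and 5.24 in scramble. Each of the 5 was higher on both CtBP2 knockdown arrays than on the 5 other arrays, as were 10.2% of all genes. PSMB9 itself has that pattern, so the choice of these genes by likeness to it largely fixed this. The genes closest to the median profile of the 10 members were ST3GAL1, SFXN2, BCL2L12, CHST7 and CFLAR, at 0.06 to 0.08 log2 units. These are descriptions of likeness over 7 arrays.

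**Figure D5:**
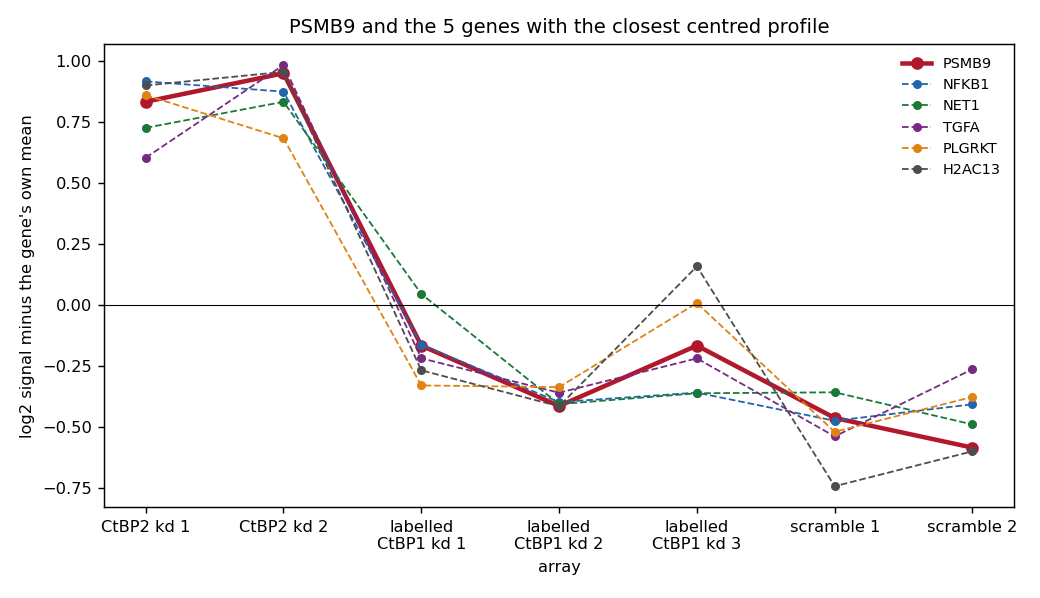
Log2 signal minus the gene's own mean over the 7 arrays (vertical axis) for PSMB9 (thick line) and the 5 genes with the most similar profile (dashed lines), by array; lines only join the arrays for reading. All 6 genes are high on the CtBP2 knockdown arrays and low on the other arrays.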

How the data were processed

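The authors deposited a log2 signal for each transcript cluster on each array. The submitters' processing notes name RMA and Affymetrix Expression Console, without versions. RMA corrects background, equalises the probe distributions and summarises probes. For RNA isolation the labels give a column kit and the design text TRIzol. No genome build is given in the sources used here. The precision is limited by the number of arrays.

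Groups come from the sample titles. Clusters with 1 symbol in the platform annotation (19181 of 33297) were named, with symbols updated through Entrez identifiers. The 3 group means were fitted over all 17958 genes with limma 3.58.1 in R 4.3.3 (lmFit, eBayes, 4 residual degrees of freedom), and p-values were adjusted by Benjamini-Hochberg at a threshold of 0.05. The fit was tested on simulated data. Members, lists and the rule for named genes (all members, up to 4 genes of each list by smallest p in CtBP2 knockdown against scramble, and the 5 closest profiles, passing over placeholder names) were chosen with earlier results of these data known. Of the listed genes, 11 were not analysed here. Promoter windows are from RefSeq, GRCh38.p14. Subunit ratios within an array were compared by exact two-sided permutation tests. Alternatives covered other scalings, filters and variance models, a replicate block, and each array left out in turn.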

Additional observations from a re-analysis of the deposited data

How the results depend on the processing

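Among the 10 members, 155 values were recomputed in each comparison, and most kept their direction and their side of the threshold: 148 in CtBP2 knockdown against scramble, 152 in the arrays labelled CtBP1 knockdown against scramble and 144 in the direct comparison. None lost a call, since none was made. Many of these values could not change direction. In CtBP2 knockdown against scramble, the variance models, the replicate block and the gene filters leave a member's difference as it was. So does leaving out an array labelled CtBP1 knockdown. Without scramble array 2, PSMB9 (1.35), TAP2 (0.99) and B2M (0.61) passed in the CtBP2 knockdown and TAP2 (0.59) in the arrays labelled CtBP1 knockdown, in fits that leave the outlying scramble array 1 as the lone control. The cause was not tested. PSMB9 in CtBP2 knockdown against scramble lay between 1.09 and 1.56 under all alternatives, with adjusted p from 0.0112 to 0.930.

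Leaving out each array, the number of genes called ran from 0 to 3952 in CtBP2 knockdown against scramble and from 0 to 3262 in the arrays labelled CtBP1 knockdown against scramble. The median of the members ran from 0.55 to 0.65, from 0.18 to 0.36, and in the direct comparison from 0.21 to 0.39. Also leaving out each array, differences of uncalled members crossed zero: PSME1 from -0.32 to 0.13 and PSME2 from -0.056 to 0.41 in CtBP2 knockdown against scramble, PSME1 from -0.0020 to 0.45 and B2M from -0.44 to 0.91 in the arrays labelled CtBP1 knockdown against scramble, and PSMB8 from -0.083 to 0.11, TAPBP from -0.15 to 0.23 and NLRC5 from -0.19 to 0.034 in the direct comparison.

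With quantile normalization again, the member medians were 0.40, 0.18 and 0.30 in these comparisons, PSME2 turned to -0.10 in CtBP2 knockdown against scramble, TAPBP to -0.058 in the direct comparison, and 7 genes were called there. Centring each array on its median shifted the median of all genes to 0.13 in CtBP2 knockdown against scramble. The member medians were then 0.79 and 0.40 against scramble, 0 genes were called and PSME1 turned to 0.053, which is below that shift. The 1 call in CtBP2 knockdown against scramble also became 0 with only the compared groups, with array weights and with the replicate number as a block. The replicate block changed no other call. The replicate numbers do not pair the samples: deviations from group means of same-numbered arrays correlated at -0.35 to 0.10. In the direct comparison, array weights gave 272 calls and TAPBP -0.0172, and the mean of a gene's clusters gave TAPBP -0.0174. The filter on dim genes left out PSMB8 and NLRC5, and the fit without genes whose values are shared between arrays, added after the data were seen, left out PSMB8, PSMB9 and NLRC5, so neither gives a median over all 10.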
